A study of Rattus norvegicus with 10 samples.

Results

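The genes described here are 9 transcripts that mark the neuromuscular junction or the response of muscle to the loss of its nerve: Musk, Ncam1, the acetylcholine receptor subunits Chrna1, Chrnb1, Chrnd, Chrne and Chrng, and the regulators Gadd45a and Runx1. They are 9 of the 17221 transcripts in the expression table, matched by symbol, and all 9 passed the filter on low values that kept 10259 transcripts. Chrng passed it only through PLA_1h and AP_34d, where both libraries held at least 1 CPM (counts per 1e+06 reads). Musk and Ncam1 were chosen by their measured level, which was higher at AP_1h, and a rise is measured from RA_0, so for them every comparison that uses AP_1h or RA_0 is a description without a test. The same holds for Chrng where PLA_1h or AP_34d enters, and these genes are left out of the counts there. The other 7 were added as known genes of the synapse and of denervated muscle, with earlier results of these data in view.

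The tissue was muscle from beneath the skin of female Wistar rats, all shaved and all with collagen-induced arthritis, in which immunisation with bovine type II collagen in adjuvant models rheumatoid arthritis. RA_0 is the group before therapy. AP_1h and AP_34d were taken 1 h and 34 days into acupuncture, in which a short steel needle was inserted beside the lower spine and below the knee and twirled, and PLA_1h and PLA_34d at the same times under placebo, a peritoneal injection of sterile saline. The animals were killed for sampling, so the 10 libraries are from different rats, 2 in each of the 5 groups. No group of healthy rats, of untreated rats at the later times or of surgically denervated muscle was analysed here, the age of the rats is not given in the sources used here, and the labels do not say from which stimulated point each specimen came. The study describes the sampled tissue as dorsal, and its methods describe it as tissue around the stimulated points. Total counts ran from 5371687 to 8899521 reads, and a count of 0 allows a level of up to 0.297 to 0.716 CPM (3 reads), counting error only. Of 10 symbols for skeletal muscle, 9 were in the table, and they summed to between 127700 and 345400 CPM in every library.

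At the neuromuscular junction the motor nerve releases agrin, which acts through LRP4 on the receptor tyrosine kinase MuSK and so gathers acetylcholine receptors under the nerve ending. The adult receptor is made of alpha, beta, delta and epsilon subunits, and the fetal receptor carries gamma in place of epsilon. In a silent or denervated fibre, nuclei away from the synapse transcribe the receptor genes, Musk and Ncam1 again, and the myogenic factor myogenin, which binds E-boxes, takes part in this. N-boxes, bound by ETS factors such as GABP, are known for the restriction of the delta and epsilon genes to the nuclei under the synapse.

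The promoters are shown because E-boxes and N-boxes are the letters by which these genes are known to be switched. RefSeq promoters of rat build GRCr8, 250 bases before and 50 after each annotated start, were at hand for 8 of the 9 genes, Ncam1 being the exception. An E-box was searched as CANNTG, which reads the same on both strands, its form with a GC core as CAGCTG, which is a subset of the first, and an N-box as CCGGAA on either strand. Below, the 250 bases before the start are printed 5′ to 3′ on the strand of the gene, with E-boxes and N-boxes in capitals. They lie at chr5:77853486-77853735 (plus strand) for Musk, chr3:78877354-78877603 (minus) for Chrna1, chr9:95310066-95310315 (plus) for Chrnd, chr10:55834155-55834404 (minus) for Chrne and chr9:95325734-95325983 (plus) for Chrng.
Musk: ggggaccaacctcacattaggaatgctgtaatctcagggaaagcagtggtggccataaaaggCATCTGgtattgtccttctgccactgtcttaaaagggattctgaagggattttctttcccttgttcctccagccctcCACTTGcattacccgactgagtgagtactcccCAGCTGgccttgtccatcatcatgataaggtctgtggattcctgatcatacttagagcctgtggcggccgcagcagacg
Chrna1: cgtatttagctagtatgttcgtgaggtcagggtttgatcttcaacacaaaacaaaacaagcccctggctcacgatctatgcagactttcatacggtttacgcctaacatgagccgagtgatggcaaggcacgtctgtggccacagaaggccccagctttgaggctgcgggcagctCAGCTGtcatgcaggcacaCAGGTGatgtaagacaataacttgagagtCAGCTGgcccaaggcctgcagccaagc
Chrnd: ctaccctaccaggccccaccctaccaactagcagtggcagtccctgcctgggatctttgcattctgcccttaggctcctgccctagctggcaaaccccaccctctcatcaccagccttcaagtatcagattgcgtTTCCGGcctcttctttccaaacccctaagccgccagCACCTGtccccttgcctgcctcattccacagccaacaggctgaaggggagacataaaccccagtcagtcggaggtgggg
Chrne: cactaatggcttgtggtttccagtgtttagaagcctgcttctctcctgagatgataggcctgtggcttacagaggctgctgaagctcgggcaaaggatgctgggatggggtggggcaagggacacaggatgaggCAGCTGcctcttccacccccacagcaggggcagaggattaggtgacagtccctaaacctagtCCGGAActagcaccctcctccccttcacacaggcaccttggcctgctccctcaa
Chrng: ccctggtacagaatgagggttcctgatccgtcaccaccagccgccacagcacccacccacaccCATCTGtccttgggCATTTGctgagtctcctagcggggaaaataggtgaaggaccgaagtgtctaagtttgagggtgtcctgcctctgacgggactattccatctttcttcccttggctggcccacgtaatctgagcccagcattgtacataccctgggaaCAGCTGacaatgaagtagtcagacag

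CAGCTG was found in 6 of the 8 promoters (Musk, Chrna1, Chrnb1, Chrne, Chrng and Gadd45a), against 15.1% of all 33469 rat promoters of the same length. Its first base lay at -79 from the start in Musk, at -75 and -27 in Chrna1, at -26 in Chrng and at -116 in Chrne. A further match in Chrng crossed the start, from -3, and that of Gadd45a lay just after it. Any E-box was found in all 8, but also in 72.1% of all promoters. The N-box stood in Chrnd, as TTCCGG from -115, and in Chrne, as CCGGAA from -54, against 14.95% of all promoters. A match of letters is a description and not a site in use.

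**Figure D1:**
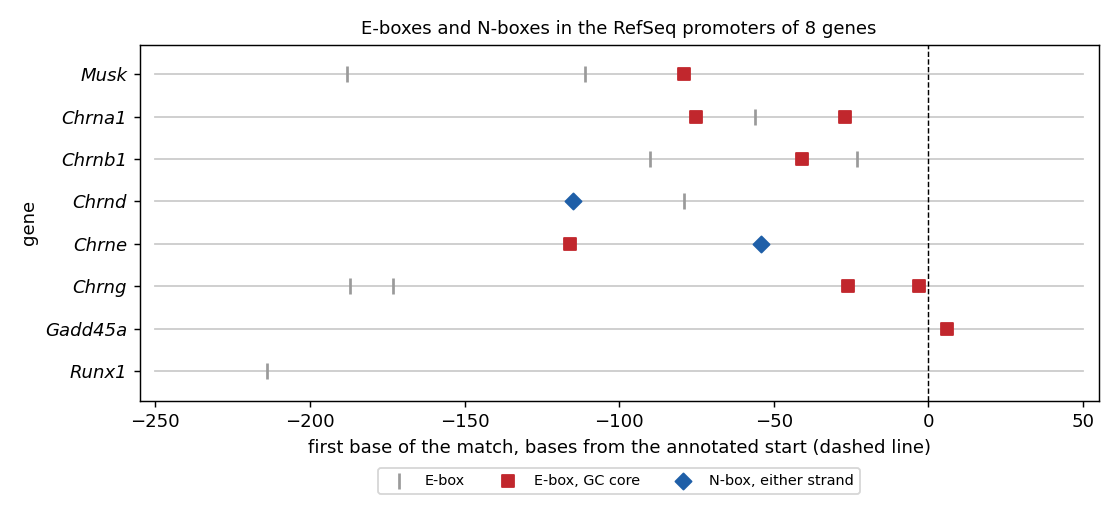
Positions of E-boxes (CANNTG, grey bars), of E-boxes with a GC core (CAGCTG, red squares) and of N-boxes (CCGGAA on either strand, blue diamonds) in 8 promoters; the horizontal axis is the distance of the first base of a match from the annotated start, in bases. The red squares of Musk, Chrna1, Chrnb1, Chrne and the first of Chrng lie between -116 and -26, and the N-boxes are those of Chrnd and Chrne.

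Musk (NM_031061, rn4 chromosome 5, 76273430 to 76388614) codes for the muscle-specific kinase that organises the junction. Its level was 1.67 and 7.43 CPM in the RA_0 libraries and 35.1 and 47.0 CPM at AP_1h. At PLA_1h it was 20.9 and 5.09 CPM, at AP_34d 2.54 and 29.7 CPM, and at PLA_34d 5.16 and 4.12 CPM. Both AP_1h libraries were above the other 8, the mean being 41.1 ± 8.40 CPM (SD, n = 2) against 4.55 ± 4.07 CPM before therapy, a log2 difference of 3.13 ± 0.94 (SE), and 1.85 ± 0.94 above PLA_1h, both descriptions of a gene picked for its level there. The 4 other groups overlapped with their neighbours in the order of means, which was AP_34d, PLA_1h, PLA_34d and RA_0. For AP_34d the log2 difference from RA_0 was 1.14 ± 0.94, and it rested on replicate 2, without which it was -0.42, while for PLA_1h it was 1.28 ± 0.94. AP_34d against PLA_34d, which the choice of the gene did not use, gave 0.89 ± 0.94 on the log2 scale (limma adjusted p 0.932).

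Partners of MuSK were measured in the same libraries. Agrn, the gene of agrin, ran from 22.2 to 46.3 CPM over the 10 libraries, Lrp4, the agrin receptor, from 21.0 to 49.4 CPM, Dok7, the adaptor that activates MuSK, from 18.2 to 56.4 CPM, and Rapsn, the scaffold of the receptor clusters, from 16.2 to 38.0 CPM. None of these 4, which were chosen for their role after their values were known, had an unadjusted p under 0.05 in any of the 6 pairs of groups.

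Ncam1 (NM_031521, chromosome 8, 52822350 to 53120572) codes for the neural cell adhesion molecule, which in adult muscle is gathered at the synapse. It stood at 16.9 and 21.2 CPM in RA_0, at 61.2 and 28.0 CPM at AP_1h and at 112 and 61.2 CPM at PLA_1h. By mean the placebo group was highest, with 86.7 ± 36.0 CPM (SD, n = 2) against 44.6 ± 23.5 CPM at AP_1h and 19.1 ± 3.04 CPM in RA_0, though PLA_1h replicate 2 and AP_1h replicate 1 stood at the same level. The log2 difference from RA_0 was 2.07 ± 0.46 for PLA_1h and 1.09 ± 0.46 for AP_1h, the latter 0.54 without replicate 1, and neither is a test, since the gene was picked on a rise from these RA_0 libraries. At 34 days the 4 libraries lay between 18.7 and 33.0 CPM, overlapping between treatments, with a log2 difference of -0.14 ± 0.46 (limma adjusted p 0.980).

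The alpha subunit, Chrna1 (NM_024485, chromosome 3, 56087756 to 56102821), binds acetylcholine. Before therapy it stood at 18.4 and 22.4 CPM, at AP_1h at 128 and 62.1 CPM and at PLA_1h at 192 and 37.0 CPM. All 4 libraries taken at 1 h were above both RA_0 libraries, while AP_34d (23.0 and 21.2 CPM) lay on their level and PLA_34d (6.62 and 17.3 CPM) below it. The log2 difference from RA_0 was 2.08 ± 0.69 for AP_1h (unadjusted p 0.0124, limma adjusted p 0.391) and 2.01 ± 0.69 for PLA_1h (unadjusted p 0.0151, limma adjusted p 1.000). Without PLA_1h replicate 1 the second difference was 0.84.

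The delta subunit, Chrnd (NM_019298, chromosome 9, 85996421 to 86004839), was at 34.8 and 14.9 CPM in RA_0, at 82.7 and 63.8 CPM at AP_1h and at 189 and 24.2 CPM at PLA_1h. Again PLA_1h replicate 1 was highest, and both AP_1h libraries were above RA_0. The log2 difference of AP_1h was 1.63 ± 0.77 (limma adjusted p 0.595), and that of PLA_1h was 1.54 ± 0.77 (limma adjusted p 1.000), which came to 0.08 without its replicate 1. At 34 days Chrnd was at 27.9 and 22.3 CPM under acupuncture and at 16.3 and 9.38 CPM under placebo, so these groups did not overlap. Over the 10 libraries Chrna1 and Chrnd were correlated at r = 0.881 on log2(CPM + 1), a description of libraries that share their processing and depth.

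The beta subunit, Chrnb1 (NM_012528, chromosome 10, 56604907 to 56617423), varied least, 2.01-fold between the lowest and the highest library. It was at 95.9 and 96.7 CPM in RA_0, at 122 and 134 CPM at AP_1h and at 129 and 130 CPM at PLA_1h. The 1 h libraries were thus above RA_0 for this subunit too, by 1.33 and 1.35 times in the ratio of means, with limma adjusted p of 0.760 and 1.000. At 34 days it was at 99.8 and 129 CPM under acupuncture and at 66.5 and 114 CPM under placebo, which overlap.

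The gamma subunit of the fetal receptor, Chrng (NM_019145, chromosome 9, 86012089 to 86018199), lies 7249 bases from Chrnd. It was close to the detection limit in 9 libraries, at 5 to 12 reads each, and at 244 reads in PLA_1h replicate 1. In CPM it was at 1.19 and 0.743 in RA_0, at 1.19 and 0.980 at AP_1h, at 24.2 and 1.58 at PLA_1h, at 2.34 and 1.79 at AP_34d and at 0.673 and 0.711 at PLA_34d. The log2 difference of PLA_1h from RA_0 was 2.04 ± 0.81, and without that library 0.40, and that of AP_1h from PLA_1h was -1.95 ± 0.81, or -0.31 without it. These are descriptions, as PLA_1h let the gene through the filter. AP_1h against RA_0, which did not use those groups, gave 0.09 ± 0.81 (limma adjusted p 0.985). The libraries of AP_1h and RA_0 held 5 to 11 reads each, and the SE includes the spread between the PLA_1h libraries. This test could therefore not have shown a small difference.

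The epsilon subunit of the adult receptor, Chrne (NM_017194, chromosome 10, 57497192 to 57501511), overlaps a transcript of LOC687707, and its values are therefore uncertain, as counting by strand is not stated, while the other 8 genes overlap no transcript of the table. It was at 18.6 and 27.8 CPM in RA_0, at 23.4 and 31.9 CPM at AP_1h and at 31.4 and 22.1 CPM at PLA_1h, 3 groups that overlapped. At AP_34d it was at 10.2 and 18.5 CPM and at PLA_34d at 19.5 and 38.8 CPM, a log2 difference of -0.95 ± 0.43 (unadjusted p 0.0491, limma adjusted p 0.856). The ratio of Chrng to Chrne, which is not per length and serves only to compare libraries, was 0.770 in PLA_1h replicate 1 and between 0.0183 and 0.231 in the other 9. In that library the ratios of Chrna1 and of Chrnd to Chrnb1, 1.48 and 1.46, were also the highest of the 10.

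Gadd45a (NM_024127, chromosome 4, 96649941 to 96652243), a stress-induced gene that denervated muscle is known to express strongly, was at 38.9 and 87.9 CPM in RA_0 and at 1109 and 526 CPM at AP_1h. PLA_1h gave 355 and 107 CPM, AP_34d 106 and 212 CPM and PLA_34d 34.8 and 96.8 CPM. Both AP_1h libraries stood above the other 8, and both groups under acupuncture stood above the placebo group of the same time. From RA_0 to AP_1h the means went from 63.4 ± 34.7 to 818 ± 412 CPM (SD, n = 2), a log2 difference of 3.68 ± 0.70 (unadjusted p 0.000353). This was the smallest p among the tested members and did not pass over all transcripts (limma adjusted p 0.121). DESeq2 called it (adjusted p 2.03e-05), as did limma fitted to these groups alone (adjusted p 0.00331), while over all alternatives the adjusted p ran up to 0.681. AP_1h was above PLA_1h by 1.96 ± 0.70 (unadjusted p 0.0185, limma adjusted p 0.951), and PLA_1h above RA_0 by 1.72 ± 0.70 (unadjusted p 0.0337, limma adjusted p 1.000). At 34 days acupuncture was 1.35 ± 0.70 above placebo (limma adjusted p 0.867) and 1.34 ± 0.70 above RA_0 (limma adjusted p 0.967).

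Runx1 (NM_017325, chromosome 11, 32623461 to 32725404) codes for a transcription factor that denervated muscle induces and that limits its wasting. It was at 4.77 and 3.27 CPM in RA_0, at 20.4 and 18.8 CPM at AP_1h and at 30.2 and 11.6 CPM at PLA_1h, so that all 4 libraries at 1 h lay above RA_0. AP_34d gave 6.05 and 53.5 CPM, the latter the highest level of the gene, and PLA_34d 4.82 and 4.26 CPM. Log2 differences from RA_0 were 2.05 ± 0.78 for AP_1h (unadjusted p 0.0246, limma adjusted p 0.476), 2.00 ± 0.78 for PLA_1h (unadjusted p 0.0276, limma adjusted p 1.000) and 1.98 ± 0.78 for AP_34d (unadjusted p 0.0287, limma adjusted p 0.967). AP_34d was 1.82 ± 0.78 above PLA_34d (unadjusted p 0.0406, limma adjusted p 0.856), and DESeq2 gave an adjusted p of 0.0490. Without AP_34d replicate 2 the last of these differences was 0.35 and that from RA_0 was 0.51.

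**Figure D2:**
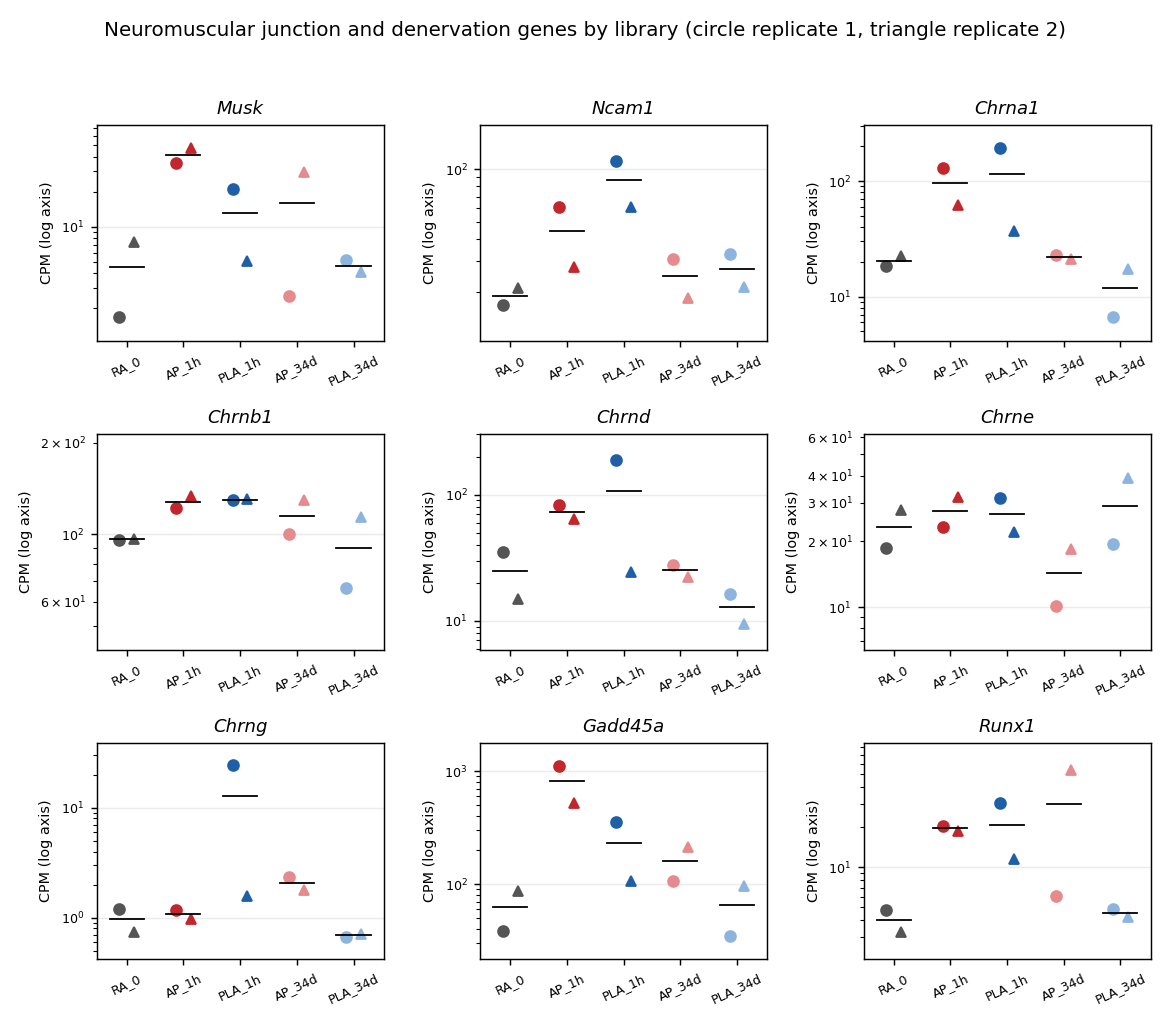
Level of each of the 9 genes in the 10 libraries, in CPM on a log axis, by group; circles are replicate 1, triangles replicate 2 and bars the mean of the 2 libraries. For Musk and Gadd45a both AP_1h libraries are above the other 8, and for Ncam1, Chrna1, Chrnd and Chrng the highest point is PLA_1h replicate 1.

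The first question of the design is what differed from RA_0 an hour into therapy. For AP_1h, 0 of the 7 members that could be tested passed a limma adjusted p under 0.05, where 0.0292% of all tested transcripts did, and limma-voom and edgeR also called 0, while DESeq2 called Gadd45a alone and 1.62% of all transcripts. At an unadjusted p under 0.05 were 3 of 7 (Chrna1, Gadd45a and Runx1), as were 8.89% of all transcripts. The study's own rule, which joins that p to a 2-fold change and to a mean level of 1 CPM or more, was met by the same 3 and by 6.12% of all. All 7 had a higher mean of log2(CPM + 1) at AP_1h than in RA_0, Chrng and Chrne by only 0.09 and 0.25 with libraries that overlapped. The median log2 difference of the 7 was 1.63, against 0.00 over all tested transcripts. The 7 were added with earlier results of these data in view, so these counts and the median are descriptions of the set. The same holds for the counts of members below. The libraries of the groups did not overlap for 5 of the 7, as for 41.6% of all transcripts. The log2 difference of Chrna1 ran from 1.6 to 2.6 with a library left out. That of Gadd45a ran from 3.1 to 4.3 and that of Runx1 from 1.8 to 2.3.

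For PLA_1h against RA_0, 6 members could be counted, without Musk, Ncam1 and Chrng, and the 6 were added with earlier results of these data known. Of the 6, 0 passed the limma test, as did 0% of all transcripts, and limma-voom, edgeR and DESeq2 called 0 of the 6, while DESeq2 called 0.0975% of all. At an unadjusted p under 0.05 were 3 of 6 (Chrna1, Gadd45a and Runx1), as were 2.59% of all transcripts, and the same 3 met the rule of the study, against 1.67% of all. The median log2 difference was 1.63, against -0.01 over all tested transcripts, and the libraries did not overlap for 4 of 6, as for 29.4% of all. The log2 difference of Chrna1 ran from 0.84 to 3.18 with a library left out. That of Gadd45a ran from 0.86 to 2.58 and that of Runx1 from 1.34 to 2.65. Both comparisons use the same RA_0 libraries, so they are not independent.

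PLA_1h replicate 1 held the highest level of 4 members and was among the 4 highest libraries for all 9. Reads on the ribosomal transcript Rn45s made 0.307% of PLA_1h replicate 1 and 1.43% of replicate 2, and from 0.369% to 0.829% at AP_1h. The part of this in the levels was not tested.

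**Figure D3:**
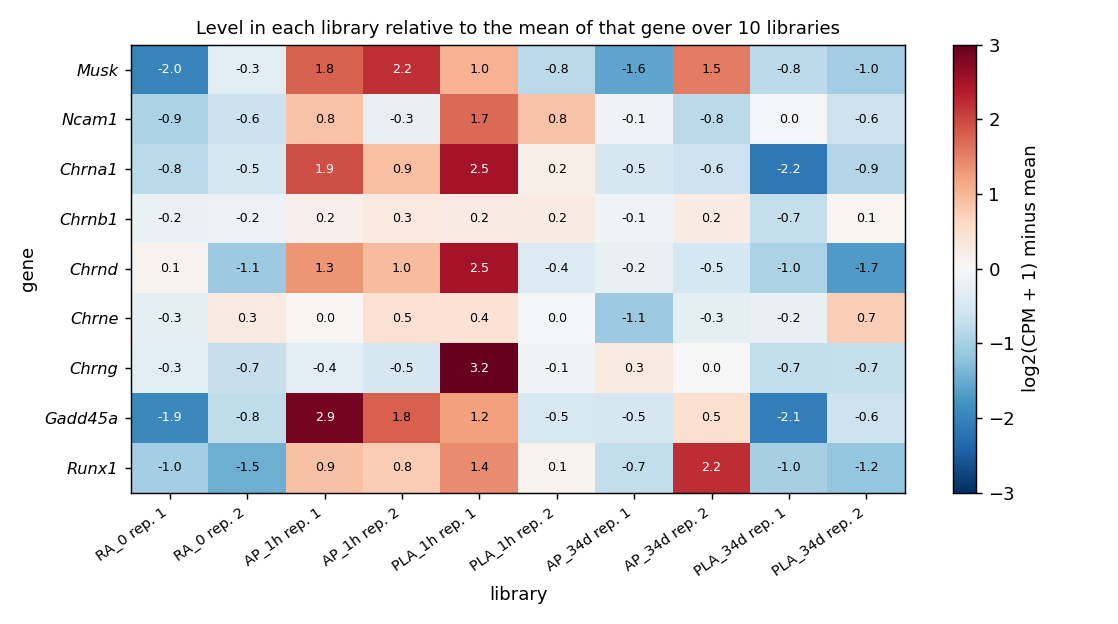
Level of each gene (rows) in each library (columns) as log2(CPM + 1) minus the mean of that gene over the 10 libraries; red is above and blue below the mean. PLA_1h replicate 1 is above the mean for all 9 genes, and Chrng is more than 1 above its mean only there.

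At 34 days 6 members could be counted for AP_34d against RA_0, of which 5 had a higher mean of log2(CPM + 1) and 1 (Chrne) a lower one. None of the 6 passed the limma test, as did 0% of all transcripts. Runx1 was the 1 member at an unadjusted p under 0.05, as were 4.77% of all transcripts, and the 1 that met the rule of the study, against 2.82%. The libraries did not overlap for 4 of 6 (Chrnb1, Chrne, Gadd45a and Runx1), as for 32.3% of all, and the median log2 difference was 0.18, against -0.01. The log2 difference of Runx1 ran from 0.51 to 3.46 with a library left out, and that of Gadd45a from 0.77 to 1.92. For PLA_34d against RA_0, with 7 members counted, 2 had a higher and 5 a lower mean, and 0 passed. None of them had an unadjusted p under 0.05, as 3.2% of all transcripts had, and 0 met the rule of the study, as 2.42% of all did. The libraries did not overlap for 2 of 7 (Chrna1 and Chrng, both lower at PLA_34d), as for 31% of all, and the median log2 difference was -0.15, against -0.01. Limma-voom, edgeR and DESeq2 called 0 of the counted members in both comparisons, where DESeq2 called 0.349% and 0.37% of all transcripts.

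The needle was set against the saline injection within each time. At 1 h, 0 of the 6 members counted passed the limma test, as did 0% of all transcripts, and limma-voom, edgeR and DESeq2 called 0 of them, while DESeq2 called 0.388% of all. Gadd45a, higher under acupuncture, was the 1 at an unadjusted p under 0.05, as were 4.04% of all, and met the rule of the study, against 2.62% of all. It was also the 1 whose libraries did not overlap, as for 30.6% of all transcripts, and the median log2 difference of the 6 was 0.07, against 0.01 over all. The log2 difference of Gadd45a ran from 1.10 to 2.83 with a library left out.

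At 34 days 0 of 8 members, all but Chrng, passed in limma, limma-voom and edgeR, as did 0% of all transcripts in limma, and DESeq2 called Runx1 and 0.848% of all transcripts. Chrne (lower under acupuncture) and Runx1 (higher) had an unadjusted p under 0.05, as had 5.47% of all transcripts, and Runx1 met the rule of the study, against 3.57%. The groups did not overlap for 5 of 8 (Chrna1, Chrnd, Chrne, Gadd45a and Runx1), as for 31% of all. The median log2 difference was 0.92, against 0.00 over all tested transcripts. This comparison uses the RA_0 and AP_1h libraries only for the spread, and Runx1 missed the rule with any 1 of them left out. The log2 difference of Runx1 ran from 0.35 to 3.30 with a library left out. That of Chrne ran from -1.43 to -0.48 and that of Gadd45a from 0.63 to 2.08.

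The last test asked whether the difference between acupuncture and placebo itself differed between 34 days and 1 h. Of the 6 members counted 0 passed in limma, as did 0% of all transcripts, and 0 in limma-voom, edgeR and DESeq2. None had an unadjusted p under 0.05, as 4.05% of all transcripts had, and 0 met the rule of the study, against 3.84%. Runx1 had a difference of differences of 1.77 ± 1.10 on the log2 scale (limma adjusted p 1.000). With a library left out this value ran from 0.3 to 3.2 for Runx1, and for Chrne it ran from -1.5 to -0.5. For Chrng, described without a test, the value was 2.81 ± 1.14, and 1.16 without PLA_1h replicate 1.

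Other genes of denervated or wasting muscle were taken as a list of 18 symbols, of which 14 were in the table and 12 tested. This list and those below were chosen with earlier results of these data known. Their counts beside the shares of all transcripts are therefore descriptions and not an independent test. None of the 12 was called in limma in any pair of groups. For AP_1h against RA_0, 5 of 12 were higher (Ankrd1, Myog, Cdkn1a, Trim63 and Fbxo32) and 1 lower (Myh3) at an unadjusted p under 0.05, against 3.62% and 5.27% of all transcripts. The median log2 difference from RA_0 was 0.77 for AP_1h, 0.94 for PLA_1h, 1.17 for AP_34d and -0.08 for PLA_34d. That of acupuncture from placebo was -0.10 at 1 h and 0.75 at 34 days, against -0.01 to 0.01 over all transcripts tested. For AP_34d 5 were higher and 0 lower, against 2.51% and 2.25% of all. For PLA_1h 3 were higher and 0 lower, against 1.38% and 1.21%, and for PLA_34d 1 was higher and 0 lower, against 2.38% and 0.819%. DESeq2 called 3 higher (Myog, Cdkn1a and Trim63) and 1 lower (Myh3) for AP_1h, against 0.565% and 1.05% of all transcripts. For AP_34d it called 3 higher (Cdkn1a, Trim63 and Fbxo32) and 0 lower, against 0.232% and 0.116%, for PLA_1h 1 higher (Cdkn1a), against 0.0975%, and for PLA_34d 0 higher and 0 lower, against 0.341% and 0.0292%. Against placebo, 0 were higher and 2 lower at 1 h at an unadjusted p under 0.05, against 1.3% and 2.74%, and 3 higher and 0 lower at 34 days, against 2.51% and 2.96%. There DESeq2 called 1 lower at 1 h (Myh3), against 0.298%, and 2 higher at 34 days (Trim63 and Fbxo32), against 0.283%.

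Myog, the gene of myogenin, was at 30.1 and 45.9 CPM in RA_0 and at 483 and 179 CPM at AP_1h. It was at 179 and 54.0 CPM at PLA_1h, at 46.1 and 231 CPM at AP_34d and at 31.9 and 40.8 CPM at PLA_34d, so that its 4 highest libraries were also the 4 highest for Gadd45a. The log2 difference of AP_1h from RA_0 was 2.95 ± 0.77 (limma adjusted p 0.252, DESeq2 adjusted p 0.00276). Cdkn1a, a cell cycle inhibitor, was at 20.3 and 81.4 CPM in RA_0, at 368 and 286 CPM at AP_1h, at 369 and 462 CPM at PLA_1h, at 243 and 403 CPM at AP_34d and at 77.1 and 277 CPM at PLA_34d. Only PLA_34d overlapped with RA_0. The log2 differences from RA_0 were 2.96 ± 0.68 for AP_1h (limma adjusted p 0.233), 3.30 ± 0.68 for PLA_1h (limma adjusted p 1.000), 2.91 ± 0.68 for AP_34d (limma adjusted p 0.722) and 1.82 ± 0.68 for PLA_34d (limma adjusted p 0.914). Ankrd1, an ankyrin repeat protein of stressed muscle, was at 23.4 and 190 CPM in RA_0, at 151 and 732 CPM at AP_1h and between 323 and 463 CPM in the libraries of PLA_1h and AP_34d. At PLA_1h its log2 difference from RA_0 was 2.51 ± 0.96 (limma adjusted p 1.000).

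Trim63 and Fbxo32 code for the muscle ubiquitin ligases MuRF1 and atrogin-1. Trim63 was at 306 and 275 CPM in RA_0, at 2666 and 680 CPM at AP_1h, at 468 and 646 CPM at PLA_1h, at 1375 and 2296 CPM at AP_34d and at 196 and 364 CPM at PLA_34d. Fbxo32 was at 21.2 and 33.1 CPM in RA_0, at 164 and 39.5 CPM at AP_1h, at 78.9 and 93.0 CPM at PLA_1h, at 148 and 490 CPM at AP_34d and at 37.1 and 29.9 CPM at PLA_34d. For both the libraries of AP_34d were above those of PLA_34d, by a log2 difference of 2.73 ± 0.61 for Trim63 (limma adjusted p 0.756, DESeq2 adjusted p 0.00227) and of 2.98 ± 0.66 for Fbxo32 (limma adjusted p 0.756, DESeq2 adjusted p 0.000476). Against RA_0 the differences of AP_34d were 2.61 ± 0.61 and 3.30 ± 0.66 (limma adjusted p 0.722 and 0.419), and for Fbxo32 both groups at 1 h were also above RA_0 without overlap, by 1.57 ± 0.66 for AP_1h and 1.65 ± 0.66 for PLA_1h (limma adjusted p 0.531 and 1.000). Fbxo30, another ubiquitin ligase of wasting muscle, was at 36.5 and 148 CPM at AP_34d and at 34.2 and 25.2 CPM at PLA_34d, a log2 difference of 1.30 ± 0.56 (limma adjusted p 0.856) that ran from 0.31 to 2.29 with a library left out. Kcnn3, the calcium-activated potassium channel that denervated muscle expresses, was at 16.9 and 20.1 CPM in RA_0. It was at 20.1 and 12.3 CPM at AP_1h and at 58.9 and 22.6 CPM at PLA_1h. AP_1h differed from PLA_1h by -1.17 ± 0.49 on the log2 scale (limma adjusted p 1.000), or from -1.84 to -0.50 with a library left out. From RA_0 the log2 difference was -0.21 ± 0.49 for AP_1h and 0.95 ± 0.49 for PLA_1h (limma unadjusted p 0.673 and 0.0803). Myh3, the embryonic myosin that regenerating fibres express, went the other way at AP_1h: it was at 259 and 291 CPM in RA_0, 270 and 234 CPM at PLA_1h and 61.2 and 112 CPM at AP_1h, a log2 difference of -1.72 ± 0.36 from RA_0 (limma adjusted p 0.191) and of -1.59 ± 0.36 from PLA_1h (limma adjusted p 0.504).

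The rest of the synaptic apparatus was a list of 22 symbols with 20 in the table and 16 tested, of which 0 were called by limma and by DESeq2 in any pair of groups. The median log2 difference from RA_0 was -0.16 for AP_1h, 0.02 for PLA_1h, -0.22 for AP_34d and -0.03 for PLA_34d, and that of acupuncture from placebo was -0.25 at 1 h and -0.26 at 34 days, against -0.01 to 0.01 over all transcripts. At an unadjusted p under 0.05, 0 of 16 were higher and 2 lower at AP_1h than in RA_0, against 3.62% and 5.27% of all, namely Etv5, an ETS factor of the synaptic nuclei, and Colq, which anchors acetylcholinesterase. Etv5 at AP_34d and Colq at PLA_1h were the only ones lower at that p in these groups, against 2.25% and 1.21% of all. Colq was at 10.0 and 6.24 CPM in RA_0, at 2.16 and 2.1 CPM at AP_1h and at 4.16 and 2.11 CPM at PLA_1h, log2 differences of -1.51 ± 0.45 (limma adjusted p 0.321) and -1.16 ± 0.45 (limma adjusted p 1.000). Etv5 was at 29.1 and 26.3 CPM in RA_0, at 9.40 and 19.5 CPM at AP_1h and at 12.9 and 14.8 CPM at AP_34d, with log2 differences from RA_0 of -0.97 ± 0.41 and -0.95 ± 0.41 (limma adjusted p 0.531 and 0.967). Utrn, the gene of utrophin, was at 17.6 and 25.2 CPM in RA_0, at 17.2 and 28.1 CPM at AP_34d and at 59.6 and 30.6 CPM at PLA_34d, log2 differences of 0.98 ± 0.40 for PLA_34d against RA_0 (limma adjusted p 0.914) and of -0.93 ± 0.40 for AP_34d against PLA_34d (limma adjusted p 0.856). In the latter pair Etv5 was also lower under acupuncture, by a log2 difference of -0.92 ± 0.41 (limma adjusted p 0.856), so that 0 of 16 were higher and 2 lower at an unadjusted p under 0.05, against 2.51% and 2.96% of all.

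**Figure D4:**
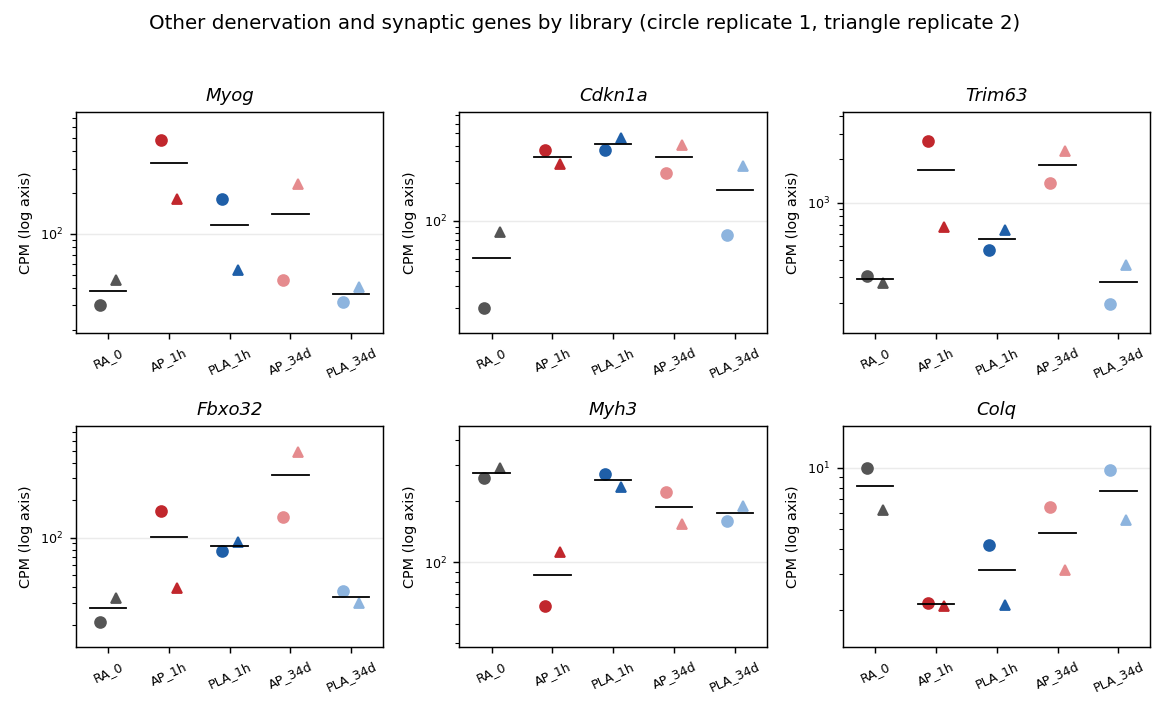
Level of 6 further genes of the denervation and synaptic lists in the 10 libraries, in CPM on a log axis, by group; circles are replicate 1, triangles replicate 2 and bars the mean. Trim63 and Fbxo32 are highest at AP_34d or in AP_1h replicate 1, Cdkn1a is above both RA_0 libraries in all other libraries but PLA_34d replicate 1, and Colq is lowest at AP_1h and in PLA_1h replicate 2.

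Levels of slow fibre genes also differed between libraries. Slow fibre markers, 10 symbols that include Myh7, Tnni1 and Myl2, summed to 20550 and 10270 CPM in RA_0 and to 1058 and 1237 CPM at AP_1h. They summed to 4372 and 1896 CPM at PLA_1h, 11820 and 1989 CPM at AP_34d and 20340 and 1773 CPM at PLA_34d. All 11 tested transcripts of the list had a lower mean at AP_1h than in RA_0, 8 of them at an unadjusted p under 0.05, against 5.27% of all transcripts in that direction, and 0 at a limma adjusted p under 0.05, with a median log2 difference of -3.50. The AP_34d library with high Musk and Runx1, replicate 2, had the lower slow fibre sum of its group. PLA_34d replicate 2, with a sum of 1773 CPM, held Musk at 4.12 CPM and Runx1 at 4.26 CPM. PLA_1h replicate 1, with the highest level of 4 members, had the higher sum of its group, 4372 CPM against 1896 CPM. The part of fibre type in the levels above was not tested, and in bulk tissue fewer fibres or nuclei of a type and less RNA in each cannot be told apart.

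Markers of other cells varied as well. Schwann cell markers, 12 symbols with 9 transcripts tested, summed to 158 to 562 CPM in RA_0, 127 to 180 CPM at AP_1h, 144 to 362 CPM at PLA_1h, 151 to 156 CPM at AP_34d and 133 to 247 CPM at PLA_34d, with 1 transcript (Sox10) lower at AP_1h at an unadjusted p under 0.05. Satellite cell markers summed to 55.6 to 89.7 CPM in RA_0, 39.2 to 45.7 CPM at AP_1h and 54.8 to 58.8 CPM at PLA_1h. At 34 days they summed to 40.6 to 41.4 CPM under acupuncture and to 37.2 to 95.3 CPM under placebo. The median log2 difference of the leukocyte list was 0.92 for AP_1h and 0.96 for PLA_34d against RA_0 and -0.44 for AP_34d against PLA_34d, and that of the Schwann cell list was -0.84, -0.32 and -0.48. Leukocyte markers summed to 25.8 to 29.7 CPM in RA_0, 26.2 to 88.3 CPM at AP_1h, 26.0 to 36.0 CPM at PLA_1h, 35.8 to 52.9 CPM at AP_34d and 24.2 to 258 CPM at PLA_34d. Keratinocyte markers were at 1.76 to 6.11 CPM in sum. The 5 transcripts of Ptprc and 5 of the 6 of Mbp were listed at 0 in every library, where overlapping transcripts of a gene lose the reads they share, and the remaining one of Mbp held 2 to 14 reads in 9 libraries and 92 reads in PLA_34d replicate 1. Genes of hindlimb and trunk position, 14 symbols with 4 transcripts tested, summed to 34.9 to 39.1 CPM in RA_0, 20.6 to 23.9 CPM at AP_1h, 26.8 to 35.1 CPM at PLA_1h, 25.5 to 29.5 CPM at AP_34d and 19.7 to 22.9 CPM at PLA_34d. Of the 4, 1 had a higher and 3 a lower mean at AP_1h than in RA_0. Hoxa10 was lower, at 1.08 and 1.54 CPM at AP_1h against 13.6 and 13.2 CPM in RA_0 (limma adjusted p 0.0806). In the other groups it was between 4.71 and 13.8 CPM. Hoxd10 was higher, at 6.81 and 9.24 CPM at AP_1h against 5.01 and 2.67 CPM in RA_0. Tbx4 and Zic1 were at 0 reads in both AP_1h libraries and in no other library. In RA_0 Tbx4 held 3 and 9 reads and Zic1 1 and 23 reads. The part of these markers of cells and position in the levels above was not tested.

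**Figure D5:**
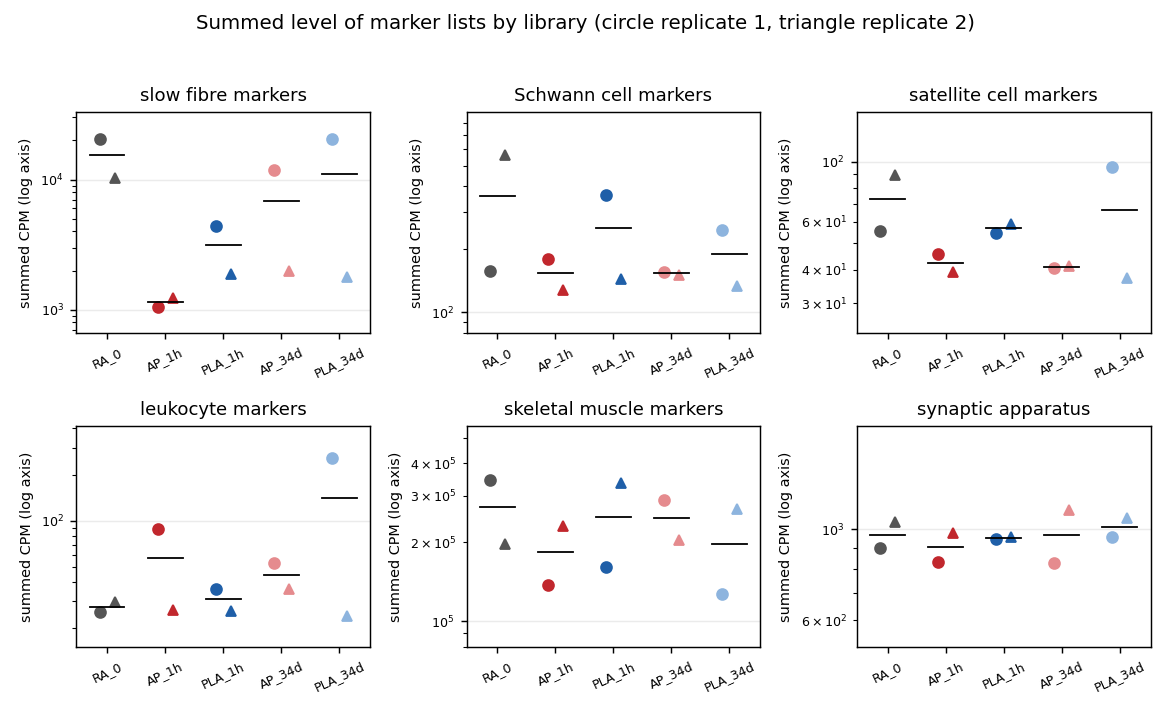
Summed level of 6 marker lists in the 10 libraries, in CPM on a log axis, by group; circles are replicate 1, triangles replicate 2 and bars the mean. The slow fibre sum is 1058 and 1237 CPM at AP_1h against 10270 and 20550 CPM in RA_0, and the synaptic apparatus sum is between 825 and 1114 CPM in every library. The latter sum rests mostly on a few high genes, such as Scn4a, Lamb2 and Dvl1, at 293, 195 and 135 CPM of 898 CPM in RA_0 replicate 1. It does not show that each gene stayed level, as Colq ran from 2.1 to 10.0 CPM.

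Likeness was taken as Pearson's r of log2(CPM + 1) over the 10 libraries, a description in which the points share their processing. The transcripts most like Musk were Nedd4 (0.971), LOC100125364 (0.962), Mfsd1 (0.944), Ppp4r2 (0.942) and Zfp189 (0.937). Those most like Ncam1 were Katnal1 (0.901), Spock2 (0.858), Mgst2 (0.851), Manba (0.834) and Sec1 (0.807). Musk and Ncam1 were correlated with each other at 0.321. Among the members Musk was closest to Gadd45a (0.866) and Runx1 (0.802), and Ncam1 to Chrna1 (0.736).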

How the data were processed

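TruSeq RNA-seq libraries of 10 rats were sequenced with Illumina chemistry (HiSeq). Per the labels and the methods of the study, adapters were removed with cutadapt 1.2.1, reads were aligned to rn4 with Bowtie2 2.1.0 and counted per transcript with HTSeq 0.5.4p3, which drops reads shared by overlapping transcripts. Whether strand was used is not stated. The deposited values are a signal per transcript: counts the authors scaled to CPM with TMM factors of edgeR 3.4.2. Whole reads could be recovered for 100% of values within 0.01 reads.

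Transcripts were kept where some group had both of its libraries at 1 CPM or more. limma 3.58.1 in R 4.3.3 (eBayes, mean trend) was fitted on log2(CPM + 1) over all 10 libraries, so fold changes of low transcripts are understated, with p-values adjusted by Benjamini-Hochberg over the 10259 transcripts. The study used limma-voom for its tests, which was run here on recovered reads as an alternative beside edgeR 4.0.16 and DESeq2 1.42.0. With 2 libraries against 2, an exact two-sided permutation test cannot go below p = 0.333. SEs and p-values of the main fit rest on the spread between 2 rats a group, pooled over all 5 groups. They are not the spread of the compared groups alone. The members and lists were chosen with earlier results of these data known. Musk and Ncam1 are left out of counts of members wherever AP_1h or RA_0 enters, and Chrng wherever PLA_1h or AP_34d does. The text names all 9 members, for the synaptic and denervation lists and each pair of groups up to 3 genes per direction with an unadjusted p under 0.05 and no overlap, and the 5 transcripts most like Musk and Ncam1. Identifiers of the 9 matched RefSeq symbols of GRCr8, from which the promoters come. The analysis was tested on simulated data.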

Additional observations from a re-analysis of the deposited data

Results flagged for a closer look

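Chrng, the gamma subunit of the fetal acetylcholine receptor, was flagged because its libraries under acupuncture lay on opposite sides of those under placebo at the 2 times. At 1 h both acupuncture libraries (1.19 and 0.980 CPM) were below both placebo libraries (24.2 and 1.58 CPM), and at 34 days both (2.34 and 1.79 CPM) were above both placebo libraries (0.673 and 0.711 CPM). This difference was 2.81 on the log2 scale, and 1.16 without PLA_1h replicate 1. It was not tested, because the gene passed the filter on low values only through PLA_1h and AP_34d. At 34 days Chrng was also above both RA_0 libraries under acupuncture and below both under placebo, and the difference between these changes was 0.85 on the log2 scale, also not tested. Outside PLA_1h replicate 1 these levels are 5 to 12 reads a library. At PLA_34d they are 6 and 5 reads, against 5 and 5 reads in RA_0. Libraries under acupuncture and placebo did not overlap for 30.6% of all tested transcripts at 1 h and for 31% at 34 days.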

How the results depend on the processing

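Results were recomputed with a pseudocount of 0.25 or 4, without the filter or with one at a mean of 5 CPM, with DESeq2 size factors or quantile normalization, with limma-voom, edgeR or DESeq2, on the compared groups alone, without the mean trend, with a replicate block and without each of the 10 libraries. Their use on the list genes was chosen after seeing the data. The count of members called, over those that could be counted, was 0 in every setting but these: for AP_1h against RA_0, DESeq2 called 1 (Gadd45a) and the compared groups alone 3 (Chrna1, Gadd45a and Runx1), and DESeq2 called 1 (Runx1) for AP_34d against PLA_34d. In the denervation list DESeq2 called 4 for AP_1h against RA_0, 3 for AP_34d against RA_0, 1 for PLA_1h against RA_0, 1 for AP_1h against PLA_1h and 2 for AP_34d against PLA_34d, and the compared groups alone gave 2 for AP_1h against RA_0. The cause was not tested. DESeq2 called 166 of all transcripts for AP_1h against RA_0, and the compared groups alone 122, against 3.

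Counts by the rule of the study moved more. Without a filter they were 1 for AP_1h against RA_0, where 2.57% of all transcripts met the rule. They were 0 for PLA_1h and AP_34d against RA_0, against 0.54% and 1.11% of all. For acupuncture against placebo they were 0 at both times, against 1.13% of all at 1 h and 1.28% at 34 days. limma-voom gave 0 for AP_34d against RA_0 and for AP_34d against PLA_34d, against 2.6% and 3.26% of all. A pseudocount of 4 gave 0 for the latter, against 2.11%. edgeR gave 2 for AP_34d against PLA_34d and 1 for the difference between times, against 5.87% and 5.03% of all. DESeq2 gave 3 and 1, against 6.12% and 5.79%. The compared groups alone gave 2 for AP_34d against RA_0, against 3.25%. A fit with a library left out holds 1 rat in a group, so for those fits ranges of log2 differences are given above.

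Of the 25 log2 differences of members that reached 2-fold or an unadjusted p under 0.05, 1 changed sign: Musk for AP_34d against RA_0 ran from -0.42 to 2.70 with a library left out. Of all 63, 24 changed sign in some setting, the others at 0.96 or less in size. The replicate numbers name the rats and do not pair them: deviations of same-numbered libraries correlated between -0.464 and 0.446 over 10 pairs of groups, 4 of them over 0.1. With the replicate block, 0 members were called in every comparison. At 5371687 to 8899521 reads a library, Chrng and, before therapy, Runx1 and Musk rest on few reads.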
